A study of Mus musculus with 9 samples.

Results

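The major urinary protein (Mup) genes encode small secreted lipocalins, a protein family whose barrel-shaped fold holds small hydrophobic molecules. The liver makes most of them, the proteins pass through the blood into the urine, and there they bind and slowly release volatile pheromones. In mice the genes form 1 dense cluster on chromosome 4 of closely related copies and pseudogenes. Growth hormone secreted in pulses, androgens, glucocorticoids and thyroid hormone are known to raise their transcription in hepatocytes, and adult males usually make more than females. Described here are 10 members of the family, Mup3, Mup7, Mup9, Mup11, Mup12, Mup15, Mup17, Mup19, Mup20 and Mup22, of 16521 genes in the deposited tables. They were chosen by name after the group means of the SAR, model and normal groups had been seen, so their levels are given as a description with no test.

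RNA was sequenced from the livers of C57BL/6 mice in 3 groups with 3 samples each. The SAR group was fed a methionine-choline-deficient (MCD) diet, which is widely used to bring about fatty liver with inflammation in rodents, and was treated with sarsasapogenin (SAR), a plant steroidal sapogenin, at what the labels call a high dose. The model group was fed the same diet without SAR. The normal group was given saline, and no diet is named for it. Its sample titles carry the label wt, for wild type, which the titles of the SAR and model samples do not use. The labels give no sex, age or amount of SAR, and none says that the samples came from separate mice, so the spread behind each p-value may be technical in part or whole. In bulk liver RNA, fewer cells of a type and less RNA per cell cannot be told apart.

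The authors deposited group means, from which whole reads per library were recovered for 16433 of the 16521 genes in all 9 libraries. Within a group the libraries are lettered a, b and c by falling size factor, and these letters are not replicate numbers. Between 6364157 and 6886938 reads per SAR library, 12227744 and 14547738 per model library and 7577560 and 8685557 per normal library were recovered, without the most abundant genes. The tables held 12 of 12 hepatocyte markers listed and 0 of 5 markers of kidney tubule. Normal library c stood apart from normal libraries a and b. On a scale common to the 9 libraries its 12 neutrophil markers summed to 8342 normalised reads, against 115 and 251 in libraries a and b, and the 13 recovered acute phase genes summed to 270286, against 38706 and 41165. Its 2 recovered hepatocyte markers, Serpina1a and Hnf4a, summed to 36469, against 36758 and 35352. The same library stood apart in the Mup genes, so folds of members against the normal group are also given without it where reads per library are known, and listed genes where their calls depend on it.

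The coding sequences of the 10 members, read from the GENCODE vM21 transcripts, show how close most copies are. Mup7, Mup9, Mup11, Mup12, Mup15, Mup17, Mup19 and Mup22 differ from each other by 1 to 9 coding bases in their 28 pairs, an identity of 98.3% to 99.8%. Mup20, which encodes darcin, a protein of male urine that draws females to the scent, differs from these 8 genes by 47 to 54 bases. Mup3 is the most distant, at 89 to 96 bases from the 8 genes and 69 bases from Mup20. The stretch of 60 bases that differs most among them, bases 329 to 270 counted back from the last coding base, carries these differences on 1 line and is shown with capitals where a base differs from the commonest base of the 10 genes.
Mup3: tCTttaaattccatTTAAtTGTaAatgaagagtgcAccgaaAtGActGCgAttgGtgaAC
Mup20: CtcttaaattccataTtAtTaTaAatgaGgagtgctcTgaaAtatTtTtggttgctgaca
Mup7: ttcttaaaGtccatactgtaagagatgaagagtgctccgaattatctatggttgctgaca
Mup11: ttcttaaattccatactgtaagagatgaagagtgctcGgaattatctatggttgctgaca
Mup9: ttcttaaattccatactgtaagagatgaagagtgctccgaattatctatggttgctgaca
In this stretch Mup17 had the letters of Mup7, Mup12 and Mup15 those of Mup11, and Mup19 and Mup22 those of Mup9. Over the whole coding sequence, Mup9, Mup11, Mup15, Mup19 and Mup22 hold no run of 50 bases that is absent from every other Mup transcript, and Mup12, Mup7 and Mup17 hold such runs at 5.09%, 6.52% and 10.2% of positions. The share is 74.2% for Mup3 and 15.2% for Mup20, which shares 419 of its runs with the pseudogene Mup-ps19. How reads that match several copies were assigned is not given in the sources used here. The split among the 8 near-identical genes is therefore uncertain, while their sum and the values of Mup3 rest less on it. That sum still depends on reads shared with Mup genes outside the 10 members. Mup9 shares 484 of its 491 runs with Mup18, and Mup22 shares 481 of 494 with Mup10.

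The regions before the starts of these genes are alike too. RefSeq windows of build GRCm38.p6 were at hand for 7 of the 10 members, all on the minus strand of chromosome 4. The 2 longest runs of bases common to all 7 windows were TACTAAATCAATCCATAGGT and AAAACATTCCACAAAGCCT, which stood on either strand of 0.0444% and 0.0407% of 27025 mouse promoter windows. The TATA-type letters TATATAAGG followed in 6 of the 7 and stood in 0.34% of all windows. The 2 common runs stood in 12 and 11 windows in all, and 11 of each were windows of Mup genes. Their shares are thus mostly those of the family itself. The stretches from the second run to the end of the TATA-type letters are shown for Mup3 (chr4:62087320-62087404), Mup9 (chr4:60421975-60422095) and Mup15 (chr4:61439721-61439837), with both ends in capitals, because they show the divergent member beside near-identical ones.
Mup3: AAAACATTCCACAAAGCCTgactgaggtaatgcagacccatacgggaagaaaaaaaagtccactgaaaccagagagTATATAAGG
Mup9: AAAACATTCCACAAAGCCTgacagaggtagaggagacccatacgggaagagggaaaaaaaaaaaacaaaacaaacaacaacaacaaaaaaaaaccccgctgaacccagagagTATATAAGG
Mup15: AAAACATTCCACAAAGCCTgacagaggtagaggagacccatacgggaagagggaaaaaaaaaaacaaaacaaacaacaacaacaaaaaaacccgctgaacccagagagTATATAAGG
The stretch of Mup19 (chr4:61782247-61782363) equals that of Mup15 letter for letter, and those of Mup9, Mup11, Mup15, Mup17 and Mup19 differ from each other by 0 to 5 bases. Mup3 differs from these 5 by 39 to 43 bases. The window of Mup7 holds both common runs but not TATATAAGG. The palindrome TTCNNNGAA, the core that STAT factors bind, was in 0 of the 7 windows and in 8.47% of all windows on either strand, which says only that these letters are not in these windows.

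In the SAR, model and normal groups the 10 members summed to 260906, 23807.5 and 289311 normalised reads, as sums of the authors' deposited group means on the scale of the table of model and normal. SAR means stand in another table and were brought to this scale by 1.09, the factor that links the model group's means in both tables. The sum was thus 12.2-fold lower in the model group than in the normal group and 11-fold higher in the SAR group than in the model group. Between the SAR and normal groups the ratio of the sums was 0.902. Much of what remained in the model group was Mup20, and without it the sum of the other 9 was 70.6-fold lower in the model group than in the normal group and 52.8-fold higher in the SAR group than in the model group. Of all reads in the deposited means, the 10 members took 1.54% in the SAR group, 0.207% in the model group and 1.69% in the normal group.

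**Figure D1:**
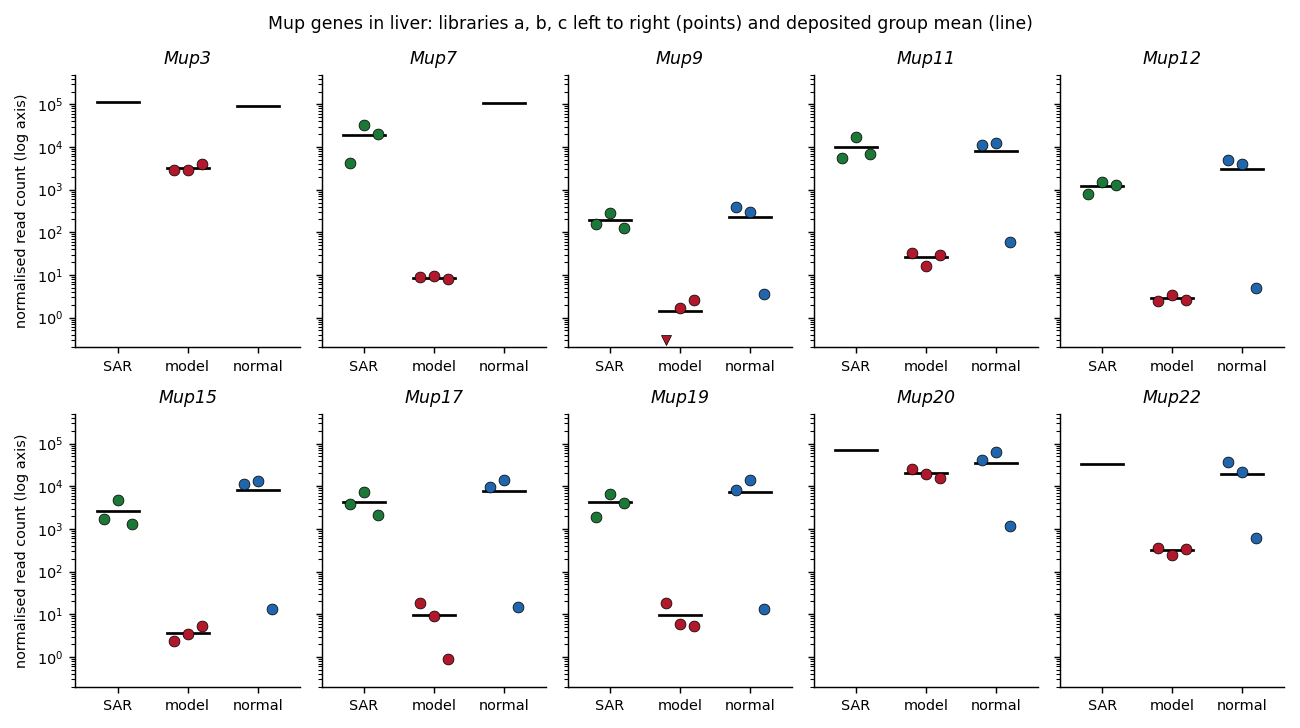
Normalised read counts (log axis) of the 10 Mup members in the SAR, model and normal libraries a, b and c (points, left to right) with the deposited group mean (line), on the scale of the table of model and normal; the triangle for Mup9 marks 0 reads, and a group with a line alone had no reads per library. The model points lie below the SAR points or the SAR mean in every panel, most closely for Mup20, and the third normal point, library c, lies near the model points in every panel that shows it except that of Mup20, where it lies below them.

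Of the 8 near-identical copies, all but Mup22 had few reads in the model group. Mup15 stood at 1730, 4764 and 1337 normalised reads in the SAR libraries a, b and c, at 2.39, 3.39 and 5.32 in the model libraries and at 11519, 13476 and 13.5 in the normal libraries. Mup12 stood at 786, 1538 and 1291 in the SAR libraries, at 2.39, 3.39 and 2.66 in the model libraries and at 4907, 4103 and 4.90 in the normal libraries. In both genes every SAR library lay above every model library, and normal library c lay beside the model libraries instead of beside normal libraries a and b. The mean of Mup15 in the model group was 2253-fold below that of the normal group and that of Mup12 1068-fold (3378-fold and 1602-fold without normal library c), and the SAR means lay 706-fold and 428-fold above those of the model group. Without SAR library b, the highest for Mup15, the SAR mean of that gene lay 415-fold above the model mean. These model values rest on 13 reads of Mup15 and 10 reads of Mup12 over the 3 libraries. Their summed reads were 720 and 428 times as many in the SAR as in the model libraries, with exact 95% intervals of 421 to 1354 and 232 to 893 that cover counting error only.

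Mup11 kept the most reads of the small copies. It stood at 5593, 17557 and 6759 normalised reads in the SAR libraries, at 32.7, 16.1 and 29.3 in the model libraries and at 10945, 12709 and 58.7 in the normal libraries. SAR library b exceeded all 3 normal libraries, and normal library c was 186-fold below normal library a. Mup17 stood at 3841, 7267 and 2101 in the SAR libraries, at 18.3, 9.31 and 0.887 in the model libraries and at 9429, 14022 and 14.7 in the normal libraries. Mup19 stood at 1951, 6750 and 4162 in the SAR libraries, at 18.3, 5.93 and 5.32 in the model libraries and at 8053, 13728 and 13.5 in the normal libraries. In Mup17 and Mup19 normal library c lay inside the range of the model libraries, so the model and normal groups overlapped, and without it they did not. Mup9 was the least abundant member, with 158, 285 and 127 in the SAR libraries, 0, 1.69 and 2.66 in the model libraries and 386, 306 and 3.67 in the normal libraries. It had 5 reads in the model group, and its summed reads were 136 times as many in the SAR libraries (exact 95% interval 57.9 to 422). This interval covers counting error only, not the spread between libraries.

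Mup7 and Mup22 are the abundant copies among the 8 near-identical genes. Mup7 stood at 4327, 33162 and 20711 normalised reads in the SAR libraries and at 8.77, 9.31 and 7.98 in the model libraries, and the authors' deposited table gives a mean of 107324 in the normal group. The normal mean could not be divided among its libraries. The mean of Mup7 was 12353-fold lower in the model group than in the normal group and 2232-fold higher in the SAR group than in the model group, the widest ratios of the 10 members in both comparisons. Without SAR library b the SAR mean lay 1441-fold above the model mean. Between the SAR and normal groups it was also the member with the lowest ratio, 0.181. For Mup22 the authors' deposited table gives a SAR mean of 30133 on that table's own scale, or 32849.6 after linking. This mean can be divided among the SAR libraries in 2 ways, and in both no SAR library falls under 13343. The gene stood at 358, 244 and 345 in the model libraries and at 36658, 21568 and 606 in the normal libraries. The mean was 62.1-fold lower in the model group than in the normal group, 92.2-fold without normal library c and 35.1-fold without normal library a. It was 104-fold higher in the SAR group than in the model group, and normal library c lay above every model library.

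Mup3 and Mup20, the divergent members, were still abundant in the model group. Mup20 stood at 25190, 19594 and 15832 normalised reads in the model libraries and at 41281, 62402 and 1160 in the normal libraries. The groups overlapped because normal library c fell 13.6-fold below the lowest model library, a place no other member took. The ratio of its means was 1.73-fold lower in the model group than in the normal group, 2.57-fold without normal library c and 1.05-fold without normal library b. In the authors' deposited table the SAR mean was 3.50-fold above the model mean. That SAR mean can be divided among its libraries in 3 ways, and the lowest SAR library among these would stand at 12917, below every model library. For Mup3 the authors' deposited table gives a mean of 105779 in the SAR group, on the scale of SAR and model, and their other table one of 92864.5 in the normal group. The gene stood at 2960, 2818 and 3896 in the model libraries. These means lay 28.8-fold lower in the model group than in the normal group and 35.8-fold higher in the SAR group than in the model group.

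The make-up of the family therefore differed between groups. Per exon length, Mup20 made up 28.9% of the summed level of the 10 members in the SAR group, 86.3% in the model group and 13.1% in the normal group. Mup3 made up 40.9%, 12% and 30.3% in the SAR, model and normal groups. Mup7 made up 7.12% in the SAR group, 0.0333% in the model group and 36.2% in the normal group, where it was the largest member. Per exon length the order was thus Mup3, Mup20, Mup22 and Mup7 in the SAR group, Mup20, Mup3 and Mup22 in the model group, and Mup7, Mup3, Mup20 and Mup22 in the normal group. In the model group the libraries of Mup20, Mup3 and Mup22 did not overlap. In the normal group those of Mup20 and Mup22 did, at 1160 to 62402 and 606 to 36658 normalised reads. For the other neighbours in the order of the SAR and normal groups the spread is not fully known. In each such pair a member could not be divided among libraries. In the SAR group the 10 members were nearly as abundant together as in the normal group, but Mup7 had a smaller share and Mup20 a larger one.

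**Figure D2:**
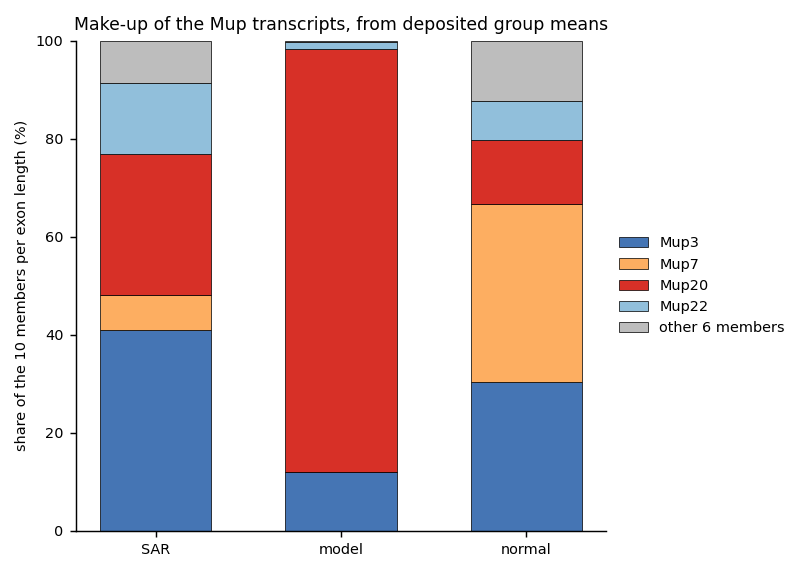
Share (%) of the summed level of the 10 Mup members per exon length, from the deposited group means of the SAR, model and normal groups; each colour is 1 member, grey the other 6 members together. Mup20 fills 86.3% of the model bar, 28.9% of the SAR bar and 13.1% of the normal bar.

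Of the 8 members with values per library in both groups, Mup9, Mup11, Mup12, Mup15 and Mup22 were lower in every model library than in every normal library, 5 of 8, and among 12579 genes tested in this comparison 26.6% were lower and 27.3% higher in this way. Of the 7 members with values per library in the SAR and model groups, 7 were higher in every SAR library than in every model library, against 22.0% of the 12470 genes tested, of which 23.3% were lower in this way. The members were chosen from these contrasts, so nothing is read from either count. Among the 6 members with reads in all 9 libraries, the correlation of log2 values over the libraries was between 0.956 and 0.994 in the 15 pairs, with a median of 0.985. These libraries share the split between groups and the copies share reads. Summing over the 6 members makes the split of shared reads among them irrelevant, but not the split with other Mup genes. The summed level was 14059, 38162 and 15778 normalised reads in the SAR libraries. It was 74.2, 39.8 and 46.1 in the model libraries and 45239, 58345 and 109 in the normal libraries. SAR library b was the highest of its group in each of the 6, by 1.96-fold to 3.56-fold over the lowest.

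The comparison of SAR with normal asks how far the levels of treated mice on the diet differed from those of the normal group, and here the values depend on normal library c. With it, 6 of the 6 members with values in all libraries overlapped between the groups, where over 11614 genes tested 15.9% were higher and 17.3% lower without overlap. The linked means of the SAR group were 1.24 times those of the normal group for Mup3, 2.02 times for Mup20 and 1.68 times for Mup22 (1.36 and 1.13 times without normal library c). Ratios under 1 were those of Mup7, Mup9 at 0.819, Mup12 at 0.401, Mup15 at 0.313, Mup17 at 0.563 and Mup19 at 0.59. Without normal library c, Mup9, Mup12, Mup15, Mup17 and Mup19 were lower in every SAR library than in normal libraries a and b, by 1.84-fold to 4.84-fold. Mup11 had a ratio of 1.26 with normal library c and was 1.20-fold lower without it, overlapping in both cases.

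The tables held 10 further Mup rows outside the chosen list, and most had the same pattern. Mup14, the most abundant of them, stood at 16837, 25502 and 15226 normalised reads in the SAR libraries, 246, 184 and 85.1 in the model libraries and 37433, 40928 and 165 in the normal libraries. Over the 9 libraries, the log2 values of Mup1, Mup2, Mup8, Mup10, Mup13, Mup14, Mup16 and Mup18 correlated at 0.928 to 0.998 with the log2 sum of the 6 members. Mup6, whose coding sequence differs by 53 bases from the nearest Mup gene, was low throughout, with 26.8, 24.6 and 13.0 in the SAR libraries, 9.57, 7.62 and 5.32 in the model libraries and 6.42, 8.38 and 0 in the normal libraries. Mup21, the nearest relative of Mup3 at 28 bases, stood at 1081, 1753 and 30.3 in the SAR libraries, so that SAR library c fell below the model libraries at 98.1, 138 and 86.0, and normal libraries a, b and c stood at 5000, 3067 and 192. Its correlation with the sum was 0.68 and that of Mup6 0.511. Summed over all 20 Mup rows, the log2 ratio was -3.75 for model against normal, 3.57 for SAR against model and -0.18 for SAR against normal.

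Other liver genes known to be higher in males had a like course. In the model group 10 of 18 tested genes of this list fell against the normal group and 0 rose (0 also at an unadjusted p of 0.05), with a median log2 fold change of -2.80, where 39.0% of the 12579 genes tested were called by limma (19.9% higher and 19.1% lower), with a median of 0.03. Without normal library c, 18 of the 18 fell, with a median of -4.31. Egfr, the receptor of epidermal growth factor, averaged 2031 ± 313 normalised reads in the model group and 9510.1 ± 1901 in the normal group (log2 fold change -2.22, SE 0.22, limma adjusted p = 0.00109; SD, n = 3 each). Cyp2d9, a cytochrome P450 gene typical of male mouse liver, averaged 1622 ± 815 and 26319 ± 13065 (log2 -4.00, adjusted p = 0.00266), and Ugt2b38, a glucuronosyltransferase gene, 15.2 ± 6.65 and 254 ± 150 (log2 -3.80, adjusted p = 0.00348). Elovl3, a fatty acid elongase gene, did not pass with normal library c (log2 -4.88, adjusted p = 0.074) and did without it (log2 -7.43, adjusted p = 0.000259). The summed level of the 19 recovered genes of this list in normal library c was 29267, against 89437 and 86307 in normal libraries a and b, on the scale common to the 9 libraries.

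Against the model group, 17 of 17 tested male-biased genes rose in the SAR group, with a median log2 fold change of 3.22, where 29.4% of the 12470 genes tested were called (13.2% higher and 16.2% lower) and the median was 0.01. Slco1a1, a transporter of organic anions, averaged 2581 ± 439 in the SAR group and 49.7 ± 27.6 in the model group (log2 5.79, SE 0.33, limma adjusted p = 5.25e-05; SD, n = 3 each). Hsd3b5, a steroid dehydrogenase gene with 1 read in the model group, averaged 252 ± 92.1 in the SAR group and 0.269 ± 0.467 in the model group (adjusted p = 8.72e-05). Nox4, which encodes a NADPH oxidase, averaged 1103 ± 92.2 and 242 ± 25.9 (log2 2.19, adjusted p = 0.00012). Between SAR and normal, 3.53% of 11614 genes were called (1.71% higher and 1.82% lower), and of the 18 listed genes tested 1 rose, Nox4, and 0 fell (2 and 1 at an unadjusted p of 0.05), with a median of 0.14. The call of Nox4 (log2 1.53, adjusted p = 0.0343) was lost when any 1 of 5 of the 6 libraries was left out, with adjusted p between 0.0665 and 0.101. Without normal library c, 2 of the listed genes rose and 3 fell, with a median of -0.49.

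**Figure D3:**
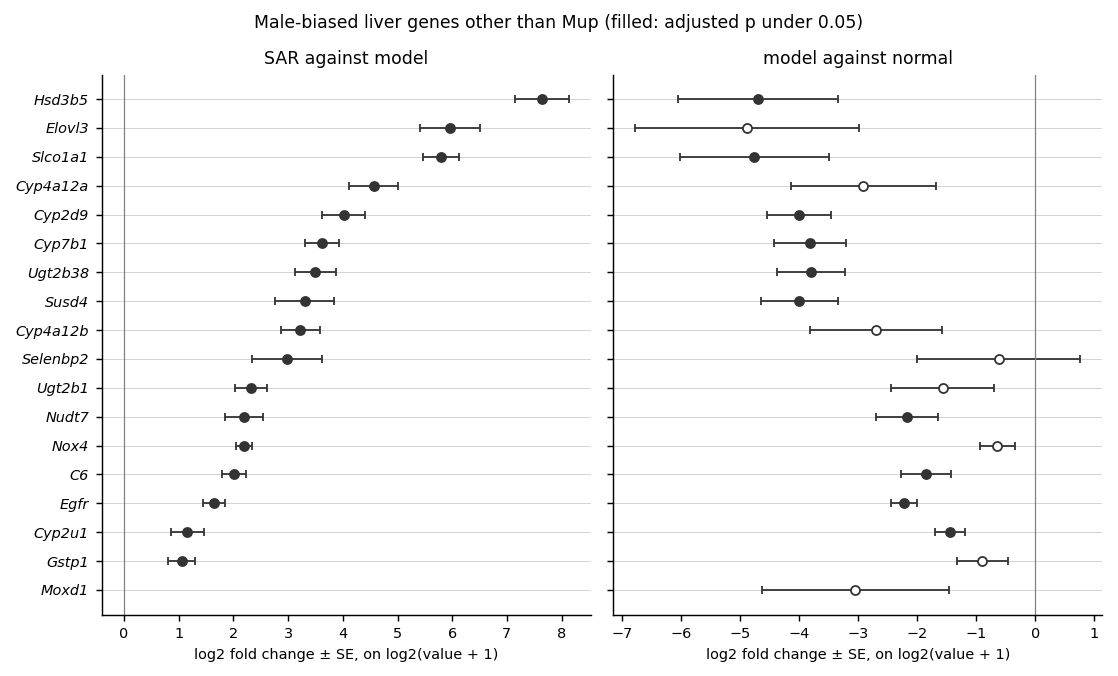
Log2 fold change ± SE (on log2 of the value + 1) of the listed male-biased liver genes other than Mup in SAR against model (left) and model against normal (right); filled points passed a limma adjusted p of 0.05. All 17 points of the left panel lie above 0 and are filled, and 10 of the 18 of the right panel are filled, all below 0.

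Of 17 female-biased genes tested, 2 rose and 2 fell in the model group against the normal group, with a median of -0.22. Over all genes tested in that comparison, 19.9% were called higher and 19.1% lower. Without model library a or b 2 of the listed genes rose and 0 fell, while without model library c 4 rose and 4 fell. Cyp2a4, a cytochrome P450 gene, averaged 788 ± 884 in the model group and 0.399 ± 0.691 in the normal group (limma adjusted p = 0.00125; SD, n = 3 each), so the model libraries varied widely. Atp6v0d2, a proton pump subunit also found in macrophages, averaged 666 ± 77.3 and 75.3 ± 97.0 (log2 3.96, adjusted p = 0.00844). Cyp2c40, another cytochrome P450 gene, fell (log2 -2.90, adjusted p = 0.0217), a call lost without any 1 of 4 libraries (adjusted p 0.0658 to 0.0799). In the SAR group 0 of 15 rose (1 at an unadjusted p of 0.05) and 4 fell against the model group, Fmo2, Cyp17a1, Cyp2a4 and Atp6v0d2, with a median of -1.37. The shares over all genes tested were 13.2% higher and 16.2% lower. Without SAR library b 2 of the listed genes fell, and without model library c 3 rose and 6 fell. Against the normal group, Cyp2a4 and Abcd2 rose and Fmo2 and Cyp17a1 fell in the SAR group, of 14 tested. Among all genes tested there, 1.71% were called higher and 1.82% lower. Of the 4 listed calls, 0 held without any 1 of the SAR libraries or normal library b.

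Growth hormone reaches these genes through its receptor, the kinase JAK2 and the factor STAT5B, and the list of this pathway was mixed. Ghr, the receptor, averaged 1804 ± 641 normalised reads in the model group and 5173 ± 1339 in the normal group (log2 -1.54, SE 0.30, limma adjusted p = 0.00763; SD, n = 3 each), and 6612 ± 666 in the SAR group and 1653 ± 577 in the model group on the scale of that comparison (log2 2.05, SE 0.25, adjusted p = 0.00128). Every model library lay below every normal and every SAR library. Stat5b did not pass in model against normal (log2 0.09, adjusted p = 0.655) or in SAR against model (log2 0.20, adjusted p = 0.435). Cish and Socs2 encode feedback inhibitors that STAT5 switches on. In the SAR libraries a, b and c Cish stood at 14.7, 7.51 and 34.4, against 129, 96.9 and 120 in the model libraries (log2 -2.78, adjusted p = 0.00475), and Socs2 at 162, 95.2 and 197, against 314, 396 and 434 (log2 -1.38, adjusted p = 0.00739). Both thus fell in the SAR group while Ghr rose, and neither passed in model against normal (log2 0.38 and 0.43, adjusted p = 0.206 and 0.114).

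Bcl6, a repressor that is higher in male liver and competes with STAT5, averaged 589 ± 54.0 in the SAR group and 158 ± 21.1 in the model group (log2 1.90, SE 0.16, limma adjusted p = 0.000354; SD, n = 3 each). It also rose against the normal group (log2 2.39, adjusted p = 0.00842), a call lost without SAR library a (adjusted p = 0.0604). Igf1, the hormone that the liver makes under growth hormone, rose in the SAR group against the model group (log2 0.86, adjusted p = 0.0296), a call lost when any 1 of 5 of the 6 libraries was left out (adjusted p 0.0759 to 0.137). Igfals, whose protein carries IGF in the blood, fell in the model group (log2 -1.60, adjusted p = 0.0142) and rose in the SAR group against it (log2 1.92, adjusted p = 0.00371), and the first call was lost without any 1 of 3 libraries (adjusted p 0.0534 to 0.0611). Of the 18 genes of the list, 4 rose, among them Jak2, Stat5a and Ptpn1, and Ghr, Stat3, Igfals and Prlr fell in the model group against the normal group, with a median of 0.44. Over all genes tested in that comparison, 19.9% were called higher and 19.1% lower. Without model library a or b 1 listed gene rose and 1 fell, and without normal library a 2 rose and 1 fell. Against the model group, Ghr, Igf1, Igfals, Bcl6 and Prlr rose and Socs2, Cish and Igfbp1 fell in the SAR group, with a median of -0.43. The shares over all genes tested were 13.2% higher and 16.2% lower. With any 1 library other than model library c left out, 3 of the listed genes rose in each case and 2 to 5 fell. Against the normal group, Bcl6 was the 1 of 17 that rose in the SAR group, and Cish (log2 -2.40, adjusted p = 0.0443) and Igfbp1 (log2 -1.67, adjusted p = 0.0185) fell, calls lost without any 1 of 4 and of 3 libraries (adjusted p 0.0984 to 0.138 and 0.0604 to 0.0767). Among all genes tested there, 1.71% were called higher and 1.82% lower.

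Transcription factors and hormone receptors that act on Mup genes or on hepatocyte genes at large fell in the model group in 13 of 24 cases, and 0 rose (0 also at an unadjusted p of 0.05), with a median log2 fold change of -0.85. Over all genes tested in that comparison, 19.1% were called lower and 19.9% higher. Without model library a or b the number of the 24 that fell was 7 or 6, and without normal library a it was 7. Hnf4a, which keeps hepatocytes differentiated, averaged 5290.3 ± 625 normalised reads in the model group and 13496 ± 585 in the normal group (log2 -1.36, SE 0.23, limma adjusted p = 0.00473; SD, n = 3 each). Foxa3, Zhx1 and Zhx3 fell by 0.93, 1.29 and 1.28 on the log2 scale (adjusted p = 0.00365, 0.00307 and 0.00341). Zhx2, a homeobox factor known to control Mup levels in mouse liver, fell by 0.63 (adjusted p = 0.0364), and Nr3c1, the glucocorticoid receptor, by 0.47 (adjusted p = 0.0456). Both calls were lost when any 1 of 5 of the 6 libraries was left out (adjusted p 0.0553 to 0.12 for Zhx2 and 0.0664 to 0.158 for Nr3c1). Thrb, a thyroid hormone receptor, fell in the model group (log2 -1.35, adjusted p = 0.0101).

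In the SAR group 13 of the 24 rose against the model group and 0 fell (16 and 0 at an unadjusted p of 0.05), with a median of 0.99. The shares over all genes tested were 13.2% higher and 16.2% lower. The number of the 24 that rose was 7 to 8 without SAR library b, SAR library c, model library a or model library b. Srd5a1, which converts testosterone into its more active form, averaged 888 ± 72.3 in the SAR group and 281 ± 24.8 in the model group (log2 1.66, SE 0.14, limma adjusted p = 0.000379; SD, n = 3 each). Foxa3 averaged 1296 ± 149 in the SAR group and 564 ± 47.1 in the model group (log2 1.20, adjusted p = 0.00148). Hnf4a rose by 1.22 on the log2 scale (adjusted p = 0.00603). Thrb rose by 1.11 (adjusted p = 0.0251), a call lost without any 1 of 4 libraries (adjusted p 0.0738 to 0.1). Zhx2 and Nr3c1 did not pass (log2 0.11 and 0.13, adjusted p = 0.691 and 0.5). In the comparison of SAR with normal, Nr0b2, a nuclear receptor induced by bile acids, rose (log2 1.87, adjusted p = 0.0259) and Onecut1, a hepatocyte factor, fell (log2 -2.86, adjusted p = 0.0389), and both were lost without SAR library a, b or c (adjusted p 0.0552 to 0.0898 and 0.0604 to 0.137 over the libraries that ended the calls). Without normal library c, 1 rose and 2 fell.

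**Figure D4:**
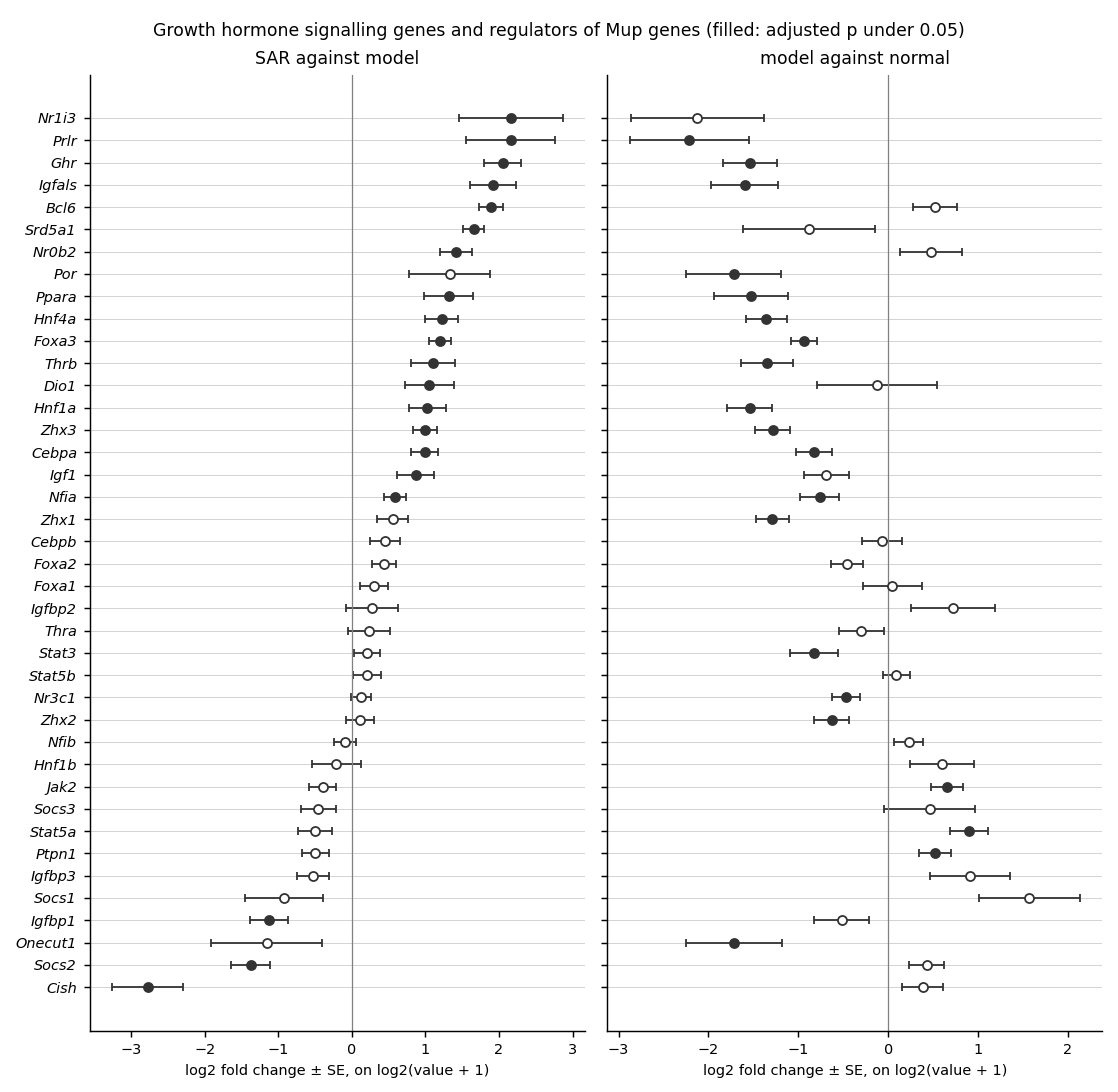
Log2 fold change ± SE (on log2 of the value + 1) of genes named in the lists of growth hormone signalling and of factors and hormone receptors of Mup control, without 2 that are counted but not shown, in SAR against model (left) and model against normal (right); filled points passed a limma adjusted p of 0.05. Ghr lies at 2.05 on the left and at -1.54 on the right, and Stat5b is open near 0 on both sides.

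Summed markers of recruited macrophages did not overlap between any groups, while those of Kupffer cells overlapped between the model group and each other group. The summed level of 7 recruited macrophage markers was 2355 to 3872 normalised reads in the SAR libraries, 12683 to 14084 in the model libraries and 383 to 608 in the normal libraries, on the scale common to all, and every marker had reads. The 7 Kupffer cell markers summed to 2249 to 4251 in the SAR libraries, 4077 to 6306 in the model libraries and 4916 to 7737 in the normal libraries. Macrophages were not the only type to differ. Markers of stellate cells and fibroblasts summed to 4846 to 20208 in the model and 251 to 1843 in the normal libraries. Those of cholangiocytes summed to 1976 to 10783 and 463 to 834. T and NK cell, B cell and adipocyte sums were also higher in the model libraries, and the erythroid sum was lower, at 2810 to 3021 against 3111 to 5595. The sum of the 2 recovered hepatocyte markers was 40018 to 45573 in the SAR libraries, 16392 to 20778 in the model libraries and 35352 to 36758 in the normal libraries. The nearest libraries of the model and normal groups were 1.70-fold apart in this sum and 1.47-fold apart in the 6-member Mup sum, where the nearest normal library was c. By group means that Mup sum was 648-fold lower in the model group than in the normal group, and 971-fold without normal library c. The median of the hepatocyte sum was 20423 in the model group and 36469 in the normal group. In normal library c the hepatocyte sum lay between those of normal libraries a and b, while its Mup sum lay beside those of the model libraries. The hepatocyte markers other than Serpina1a and Hnf4a, of 12 listed, were not recovered in every library. In the authors' deposited table their ratios of model to normal means ran from 0.155 for Cps1 to 1.01 for Ahsg. The part of cell make-up in the Mup levels was not tested.

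Of 7 other abundant secreted proteins of hepatocytes recovered in both groups, 3 fell in the model group against the normal group, where 19.1% of all genes tested were lower. These were Serpina1c, Serpina1d and F2 (log2 -1.24, -2.27 and -1.16; limma adjusted p = 0.0041, 0.00341 and 0.0419) while 0 rose, and the median of the 7 was -0.93. The call of F2, the thrombin precursor, was lost when any 1 of 5 libraries was left out (adjusted p 0.0703 to 0.179). Another 19 were not recovered in both groups. In the authors' deposited table their ratios of model to normal means ran from 0.0795 for Serpina3k to 1.01 for Ahsg. Alb, the albumin gene, lay near the upper end at 0.877, with means of 738902 in the model group and 842230 in the normal group. In the SAR group 4 of 9 rose against the model group, Serpina1a, Serpina1c, Serpina1d and Plg, and 0 fell, with a median of 0.97. The shares over all genes tested were 13.2% higher and 16.2% lower. Of the 9, 2 rose without SAR library b, SAR library c, model library a or model library b, and 7 without model library c. Between SAR and normal 0 of 5 were called by limma (1 higher at an unadjusted p of 0.05), and 1 rose without normal library c.

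Of the other lipocalins, Apom, which carries lipids on lipoproteins, fell in the model group against the normal group, 610 ± 206 against 2569 ± 204 normalised reads (log2 -2.12, limma adjusted p = 0.00143; SD, n = 3 each), the 1 of 5 tested that was called, with a median of -0.31. Over all genes tested in that comparison, 39.0% were called. Without normal library c 3 lipocalins rose and 2 fell. Apom and C8g rose and Lcn2 and Orm2 fell in the SAR group against the model group, 4 of 6 tested, with a median of 0.10, where 29.4% of all genes tested were called. Without SAR library b or c 1 rose and 1 fell, without SAR library a 1 of the 2 falls was lost, and without model library a or b 1 of the 2 rises. Lcn2, an iron-withholding lipocalin of the acute phase and of neutrophils, averaged 1530 ± 359 in the SAR group and 9687 ± 1350.1 in the model group (log2 -2.68, adjusted p = 0.000354). In the comparison of SAR with normal, Apom fell (log2 -1.06, adjusted p = 0.0477), a call lost without any 1 of 5 libraries (adjusted p 0.0671 to 0.14), and without normal library c 3 lipocalins rose and 1 fell. The summed level of 10 recovered lipocalins in normal library c was 77509, against 6724 and 6750 in normal libraries a and b.

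Acute phase genes went both ways. In the model group 1 of 13 tested rose, Cd14, and 4 fell against the normal group, Crp, Il1r1, Il6ra and Lbp, with a median of -0.31. Over all genes tested in that comparison, 19.9% were called higher and 19.1% lower. Without normal library c 5 of the listed genes rose and 4 fell, and without model library a or b 1 rose and 1 fell. Crp, a pentraxin, averaged 2475 ± 1258 in the model group and 7819 ± 425 in the normal group (log2 -1.77, limma adjusted p = 0.00665; SD, n = 3 each). Of 17 acute phase genes 8 rose and 3 fell in the SAR group against the model group, with a median of 0.37. The shares over all genes tested were 13.2% higher and 16.2% lower. Without model library b 5 of the 17 rose. Saa4, a serum amyloid A gene, rose by 2.54 on the log2 scale (adjusted p = 0.00096 by limma), with 7745, 10220 and 7477 normalised reads in the SAR libraries, against 1078, 1273 and 2178 in the model libraries. In the comparison of SAR with normal 0 of 13 were called by limma (1 higher and 2 lower at an unadjusted p of 0.05), and 7 rose without normal library c.

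In model against normal and SAR against model, the genes on both sides of the Mup cluster changed far less than the sum of the 6 members. Of the 5 nearest measured protein-coding genes on each side, 9 passed the filter on low values. In the model group Snx30 and Slc31a2 rose and Hsdl2, Ptbp3, Slc31a1 and Cdc26 fell against the normal group, with log2 fold changes of the 9 between -1.17 and 0.82. Over all genes tested in that comparison, 19.9% were called higher and 19.1% lower. In the SAR group Hsdl2 and Slc31a1 rose and Slc31a2 fell against the model group, with log2 fold changes of the 9 between -0.79 and 1.05. There the shares over all genes tested were 13.2% higher and 16.2% lower. In the comparison of SAR with normal 0 of the 9 were called by limma (1 lower at an unadjusted p of 0.05), and the range was -0.51 to 0.06. Hsdl2 and Slc31a1 thus fell in the model group and rose in the SAR group against it, while Slc31a2 went the opposite way. Slc31a1, a copper transporter, averaged 1118 ± 363 normalised reads in the model group and 2433 ± 285 in the normal group (log2 -1.16, limma adjusted p = 0.00889; SD, n = 3 each). The largest of these changes, 1.17 on the log2 scale, stands beside -9.34 for the sum of the 6 members (-9.92 without normal library c). In SAR against model that sum stood at 8.73. The sum of all 10 members changed less, at -3.60 in model against normal and 3.45 in SAR against model. Mup3, Mup7, Mup20 and Mup22 are outside the sum of the 6. Mup20, at -0.79 in model against normal, changed less than Hsdl2 or Slc31a1. These Mup values are log2 ratios of means, while those of the neighbours come from the limma fit.

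The genes whose levels over the 9 libraries were most like the Mup sum were found among 12285 genes by Pearson correlation of log2 values. Alas2, which encodes the erythroid enzyme that opens heme synthesis, led with 0.988, followed by Trp53inp2 at 0.982, Cmah at 0.980, Slco1a1 at 0.979, Sdr9c7 and Elovl3 at 0.978, Xiap at 0.977, Ugt1a9 at 0.971, Ptcd1 at 0.970 and Zfp982 at 0.968. Alas2 stood at 591, 691 and 627 normalised reads in the SAR libraries, 153, 154 and 212 in the model libraries and 839, 806 and 199 in the normal libraries, so normal library c lay among the model libraries here too. Elovl3 stood at 4736, 2655 and 1362 in the SAR libraries, 95.8, 26.7 and 26.3 in the model libraries and 7378, 6954 and 35.3 in the normal libraries. The most opposite were Hmgn2, a chromatin protein, at -0.974, Ncf1 and Fcgr3, genes of phagocytes, at -0.973 and -0.971, Kcnab2 at -0.971 and Slpi, a protease inhibitor of inflamed tissue, at -0.970. Without normal library c the correlations of the 10 most alike were 0.964 to 0.986. With 9 libraries that fall into groups, 119 genes had a correlation above 0.9, so these are a description of shared levels and give no p.

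**Figure D5:**
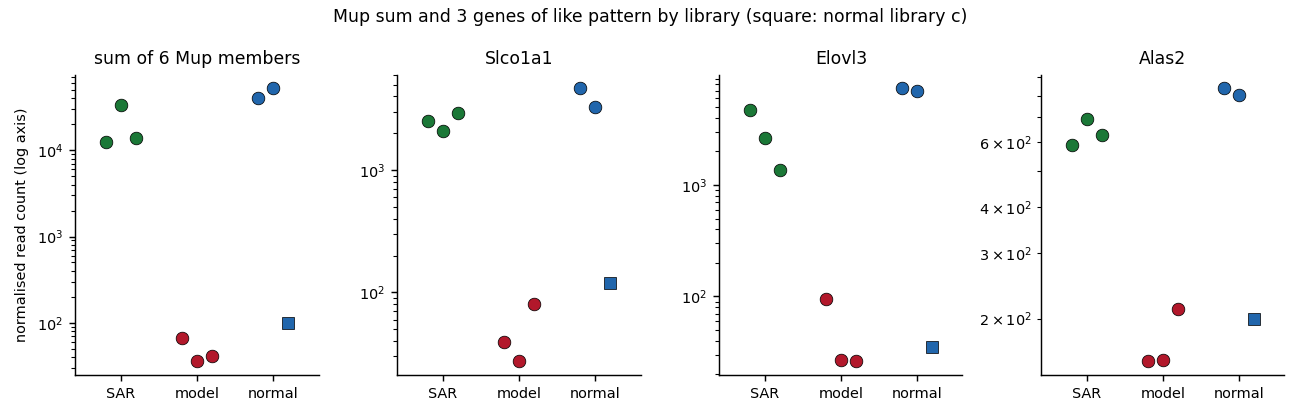
Normalised read counts (log axis, scale common to the 9 libraries) of the summed level of 6 Mup members and of Slco1a1, Elovl3 and Alas2 in the SAR, model and normal libraries a, b and c (left to right); the square marks normal library c. In all 4 panels the square lies beside the model points and the other normal points beside or above the SAR points.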

How the data were processed

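The members and the gene lists were chosen with earlier results of these data known. Libraries were made with NEBNext Ultra from Trizol RNA of 9 liver samples, per the labels' protocols, and build mm9 is named in the submitters' processing notes. Aligner, counter, annotation and strand are not stated there, so overlapping and antisense genes may share reads. The authors deposited 2 tables, model with normal and SAR with model. A gene's signal in them is its mean read count in a group after division by DESeq size factors, per the file headers. The deposited fold, its log2 value and the p-values come from the authors' own comparison of means, and no such p-value is printed.

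Each mean is a sum of 3 whole read numbers over their size factors, and these numbers were solved for from its 15 digits. All 16072 of 16072 model genes solved separately in both tables had the same reads. Size factors recomputed from the reads lay within 0.252% of the authors', and of 2000 means moved by a tiny amount 0 could be solved. Mup3, Mup7, Mup20 and Mup22 have several solutions in 1 or 2 groups and are given there as group means. The planned count tests were not run on these recovered reads.

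Genes with a mean of at least 10 were tested with limma 3.58.1 (R 4.3.3) with trended variance on log2(value + 1), which understates changes of low genes. Tests were two-sided, adjusted by Benjamini-Hochberg across every gene tested, at 0.05. The authors' size factors scale each table and medians of ratios the comparison of SAR with normal, so listed genes have a scale of their own in each comparison. Named besides the members are the other Mup rows, 5 neighbours on each side, the 10 most alike and 5 most opposite genes, the 3 called genes with the lowest adjusted p of each of 7 lists (140 symbols, 2 not in the tables), and Ghr, Stat5b, Socs2, Cish, Igf1, Bcl6, Zhx2, Nr3c1, Thrb and Hnf4a, while 2 listed genes are counted in their lists and not reported here by name. Other genes named, such as Alb, were chosen after their values were seen. Sequences are from RefSeq (GRCm38.p6) and GENCODE vM21. Alternatives were TMM scaling, pseudocounts of 0.5 and 5, no filter, other sums of Mup rows and leaving out each library. Listing values without normal library c was chosen after seeing the data.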

Additional observations from a re-analysis of the deposited data

How the results depend on the processing

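Leaving out 1 library moved several counts by more than 1.5 times, while TMM scaling, pseudocounts of 0.5 and 5 and the absence of a filter moved no comparison by that much. Genes called numbered 4907 in model against normal and 2436 (without model library b) to 5791 (without model library c) with 1 library left out. In SAR against model they numbered 3661, and 1542 (without model library b) to 5157 (without model library c). In SAR against normal they numbered 410, and 6 (without SAR library a) to 1086 (without normal library c). Listed genes called numbered 44 in model against normal with a range of 22 to 56, and 11 in SAR against normal with a range of 0 to 27. Of 141 results for single genes 30 lost their call without at least 1 library and 9 gained one. Elovl3 in SAR against normal had a log2 fold change of 1.07, and of -1.47 (without normal library c, limma adjusted p = 0.0482) to 2.36 (without normal library a) with 1 library left out, and the cause was not tested. In that comparison the signs of Mup9 (0.27 without normal library a), Mup11 (-0.38 without SAR library b and -0.26 without normal library c) and Mup19 (0.08 without normal library b) also turned as values, while the summed level of the 6 members stayed lower in the SAR group (log2 -1.23 to -0.01). The sum kept its direction in both other comparisons under each alternative run. No paired analysis was possible because the recovered libraries carry no replicate number. The planned edgeR and DESeq2 fits were not run on the recovered reads. Ratios of means that moved by over 1.5 times without 1 library include those of Mup11 in SAR against model (237-fold without SAR library b), Mup17 and Mup19 in model against normal (496-fold and 409-fold lower without normal library b, 1534-fold and 1292-fold without model library a) and in SAR against model (864-fold and 763-fold without model library a), and Mup9 in model against normal and SAR against model (274-fold lower and 225-fold higher without model library c). Depth limits the near-identical copies other than Mup22 in the model group, where Mup9 had 5 reads, and reads shared among copies limit each of their values.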
